A study of Mus musculus with 8 samples.

Results

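The Polycomb complex genes described here are 9 genes chosen by name: Ezh2, Suz12, Eed, Jarid2 and Mtf2, which encode parts of Polycomb repressive complex PRC2, and Ring1, Rnf2, Cbx7 and Pcgf6, which encode parts of PRC1. Of the 9 genes, 7 had at least 1 called m6A site in mouse TBLC, out of 10609 gene symbols with a site, and they held 96 of 85953 distinct sites. Those 7 were 3 of 5 PRC2 genes (Suz12, Jarid2, Mtf2) and 4 of 4 PRC1 genes. Ezh2, the methyltransferase subunit of PRC2, and Eed, the subunit that binds the finished mark, had no listed site among those analysed here, so no level is given for either.

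m6A (N6-methyladenosine) was measured with GLORI, a chemical method in which unmethylated adenosines are read as G and methylated ones stay A, so the level of a site is its A reads divided by its A+G reads, from 0 to 1. TBLC cultured in MYCP medium received either siVirma, an siRNA against Virma, a subunit of the m6A writer complex, or the control siRNA siNC, with 2 libraries of each. EPSC were studied with the dCas13b-FTO system, an RNA-targeting Cas13b without cutting activity joined to the m6A demethylase FTO, with the guide sgGata6 or the guide sgCtrl, and again 2 libraries of each. The EPSC values are pooled over the libraries of a group. The labels do not say that libraries of a group came from separate cultures, so the p-values here reflect differences among these libraries alone, and that spread may be technical.

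PRC2 places methyl groups on lysine 27 of histone H3, and PRC1 places ubiquitin on histone H2A, and both marks are tied to gene silencing. In pluripotent and early embryonic cells the complexes hold developmental genes in a silent or poised state. Suz12 is the scaffold of PRC2, Jarid2 helps to bring PRC2 to its targets and stimulates it, and Mtf2 (also called Pcl2) brings PRC2 to CpG islands. Rnf2 (RING1B) and its paralog Ring1 (RING1A) are the E3 ubiquitin ligase subunits of PRC1, Cbx7 is the chromodomain subunit of canonical PRC1 that binds trimethylated lysine 27, and Pcgf6 is the subunit that defines a variant PRC1.

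The lists of the siVirma libraries held 41082 and 34739 called sites with 3423268 and 2655963 A+G reads, against 66350 and 61957 sites with 4764955 and 4367999 A+G reads in the siNC libraries. Every listed site had a minimum of 15 A+G reads, 5 A reads and a level of 0.1, and an authors' adjusted p under 0.005, so a site missing from a list can have a lower level, too few reads or a higher p. Virma itself had a gene coverage of 24.0 and 22.8 in the siVirma libraries, against 40.3 and 38.2 in the siNC libraries. Both siVirma values lay below both siNC values, and after centring each library on its median gene the log2 change was -0.91 ± 0.06 (SE, limma adjusted p = 0.000403). Of the cell type markers, 10 of 16 genes of the 2-cell program and 10 of 12 pluripotency genes had a site in all 4 TBLC lists and so a coverage value in each. Pou5f1 and Dppa5a had none in at least 1 list.

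Fewer sites were called in the Polycomb genes after siVirma. The 7 genes together had 47 and 45 listed sites in the siVirma libraries, against 77 and 74 in the siNC libraries, which is 60.9% of the siNC mean, beside 59.1% over all listed sites. The PRC2 genes had 21 and 20 sites in siVirma against 41 and 40 in siNC (50.6%), and the PRC1 genes 26 and 25 against 36 and 34 (72.9%). Cbx7, the member with the most sites, had the highest siVirma count as a percent of siNC (85.0%). It had 18 and 16 listed sites in siVirma against 23 and 17 in siNC, so the groups overlapped. Cbx7 thus gave most of the PRC1 sites and weighed most in the PRC1 percent. The other PRC1 genes had 52.4% (Rnf2) and 66.7% (Ring1 and Pcgf6). These lay within the range of the PRC2 genes with a site, 42.4% (Mtf2) to 66.7% (Suz12). The siNC libraries differed from each other, with 7 Cbx7 sites listed in siNC replicate 1 only and 1 in siNC replicate 2 only.

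Mtf2 had 7 and 7 sites in siVirma against 16 and 17 in siNC, and Jarid2 had 8 and 7 against 16 and 14. Rnf2 had 5 and 6 sites in siVirma against 9 and 12 in siNC, Suz12 6 and 6 against 9 and 9, and Pcgf6 2 and 2 against 3 and 3. Both siVirma counts lay below both siNC counts in these 5 of the 7 genes, and the same held for 64.3% of the 8806 genes with a site in both siNC lists. Ring1 had 1 and 1 site in siVirma against 1 and 2 in siNC, so the groups touched. In siNC the Polycomb genes ranged from few sites to many: the median gene had 3.5 sites per list, and Cbx7 had more sites than 95.4% of genes, Mtf2 than 92.5%, Jarid2 than 90.8% and Ring1 than 24.5%. With 2 libraries against 2, an exact permutation test cannot give a two-sided p below 0.333, so site numbers are given without a test.

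**Figure D1:**
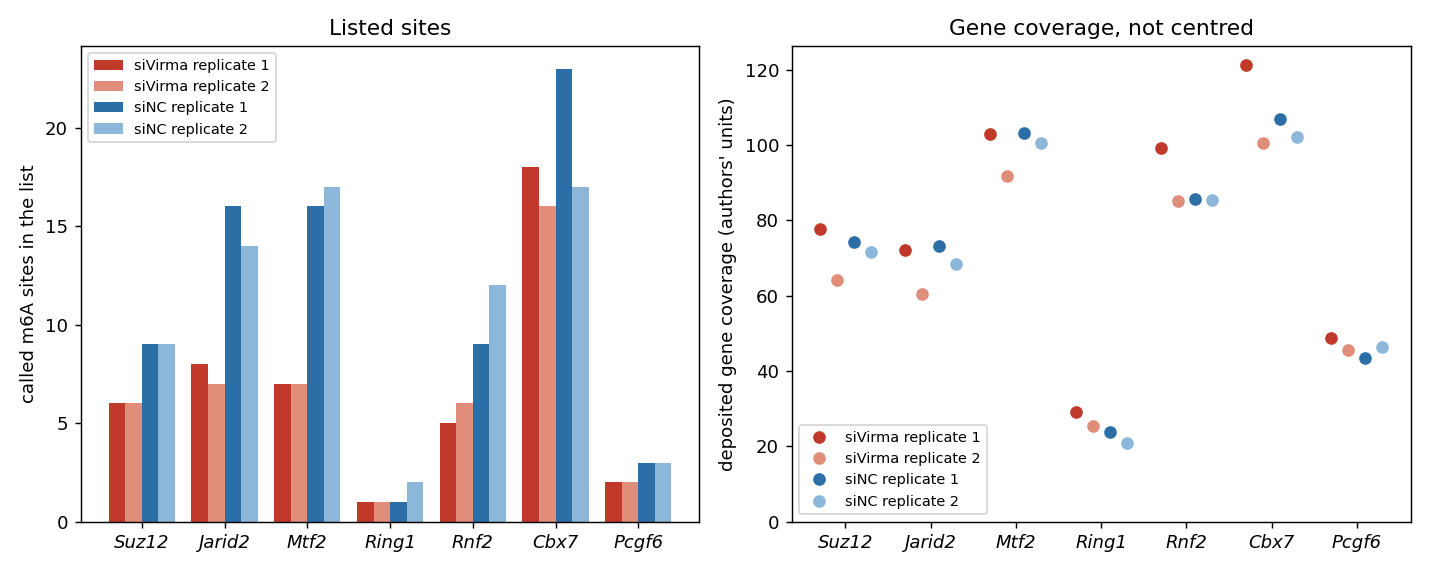
Left, number of called m6A sites (y axis) per gene (x axis) in each TBLC library; right, deposited gene coverage in the authors' units, not centred, for the same genes and libraries. Bars and points are single libraries, siVirma in red and siNC in blue; site numbers were lower in both siVirma lists for 5 of 7 genes, while the coverage points of Suz12 (77.8 and 64.1 in siVirma, 74.3 and 71.7 in siNC) overlap between the groups.

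The listed sites lay in clusters. All 12 Suz12 sites fell within 652 nt on the plus strand of chromosome 11 (79922728 to 79923379, build mm39), and each had another listed site within 100 nt. Over the 96 sites of the Polycomb genes 69.8% had a listed neighbour that close, and 70.8% of all sites with a gene name did. Of 27 Cbx7 sites (chromosome 15, minus strand, 79800090 to 79855144), 26 lay within 4000 nt of the site nearest the 3′ end of the transcript strand. The same was true of 13 of 14 Rnf2 sites (chromosome 1, minus strand, 151345430 to 151376559) and of 15 of 19 Mtf2 sites (chromosome 5, plus strand, 108213582 to 108256729). Jarid2 differed, with 6 of its 18 sites in that window and a span of 189993 nt (chromosome 13, plus strand, 44884953 to 45074945). Sites in such a window were counted for the Polycomb genes only, so no share over all genes is given. Pcgf6 had 4 sites on the minus strand of chromosome 19 (47022470 to 47039011), and Ring1 had 2 on the minus strand of chromosome 17 (34240192 and 34240366). Exons and UTRs are not given because no mm39 gene models were used. Neighbouring sites share reads and are not independent of each other.

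**Figure D2:**
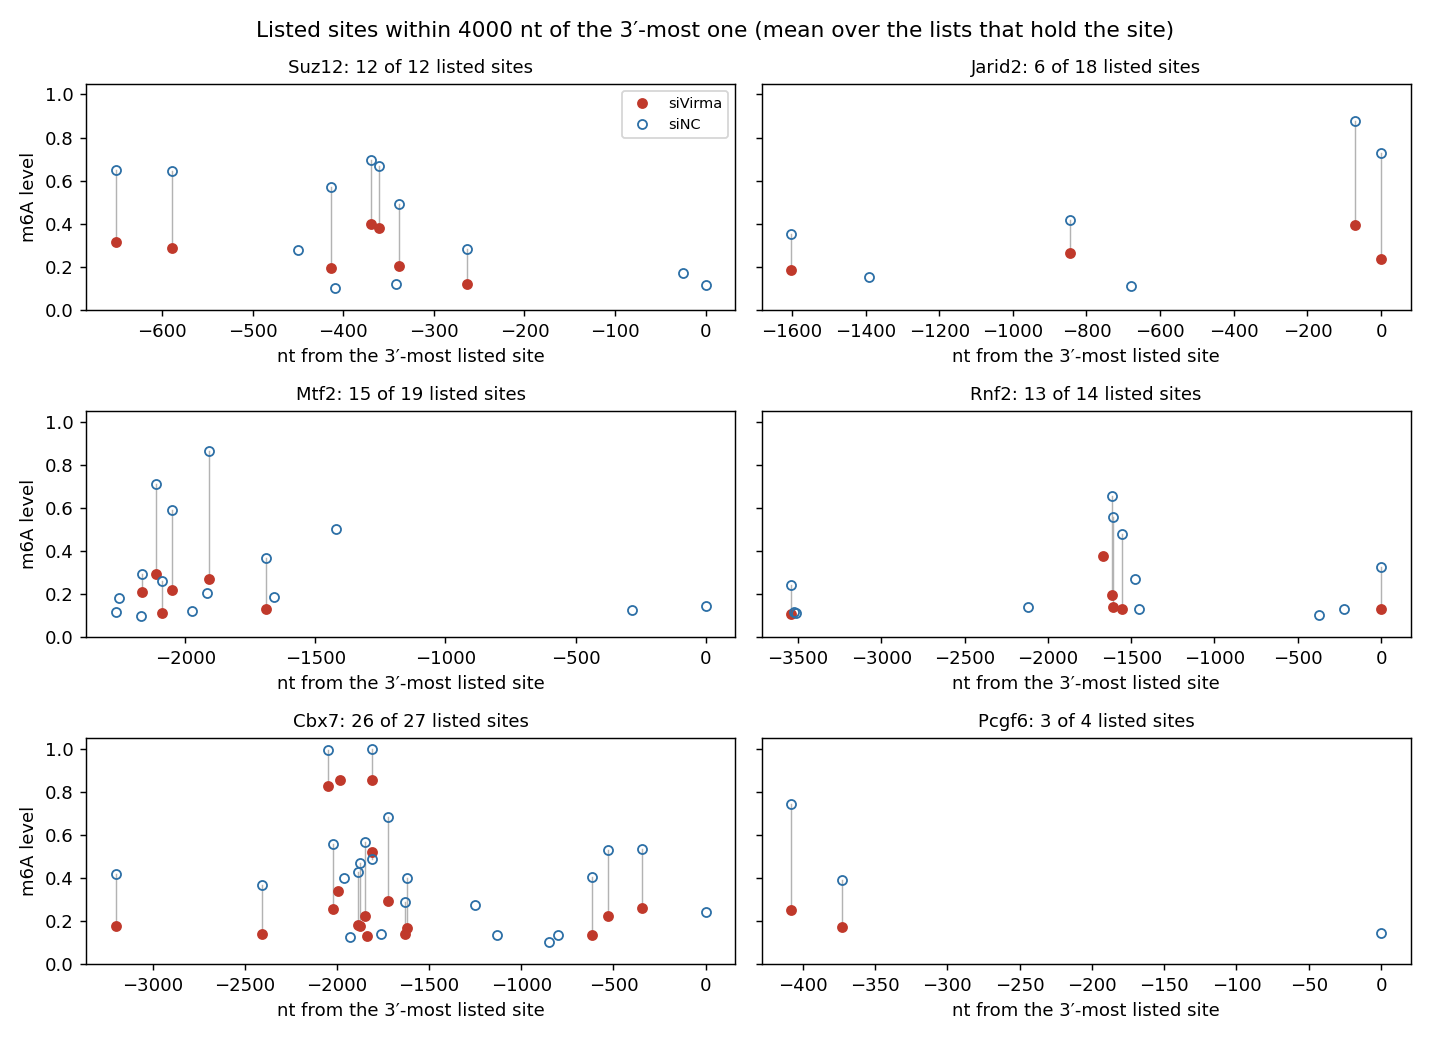
m6A level (y axis, 0 to 1) of the listed sites of 6 Polycomb genes by distance in nt from the 3′-most listed site (x axis, transcript 5′ to 3′ from left to right; each panel has its own x scale). Filled red points are siVirma and open blue points siNC, each the mean over the lists of the group that hold the site, and grey lines join the groups where both list it; 12 of 12 Suz12 sites fall within 652 nt, and blue points without a red partner are mostly at low levels.

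Sites missing from the siVirma lists mostly had low siNC levels. Of 60 Polycomb sites called in both siNC lists, 31 were in both siVirma lists, 10 in 1 and 19 in neither. The 19 make 31.7% (Wilson 95% interval 21.3% to 44.2%, counting error only), beside 33.1% of 49554 sites over all genes. The complexes were close, with 10 of 32 PRC2 sites and 9 of 28 PRC1 sites in neither list. The median siNC level was 0.557 for the sites found in both siVirma lists, 0.296 for those in 1 and 0.153 for those in neither. None of 12 sites with a siNC level of 0.1 to 0.2 was in both siVirma lists, and all 6 sites at 0.7 or above were. Over all genes those shares were 2.83% and 90.3%. Among sites at 0.3 to 0.5, 10 of 14 Polycomb sites were in both siVirma lists, against 42.0% of all such sites. The median A+G reads in siNC were 105 for the sites lost from both lists and 92.5 for those kept in both. Over all sites those medians were 47 and 45.5. A call needs enough reads, so the shares of Polycomb sites and of all sites are set side by side at unlike depth.

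By gene, Mtf2 lost 6 of 14 such sites from both siVirma lists and Rnf2 lost 4 of 9, while Suz12 lost 1 of 6, Jarid2 3 of 12, Cbx7 4 of 16 and Pcgf6 1 of 2, and the 1 such Ring1 site was kept. A few sites went the other way. Of the 39 sites in both siVirma lists, 3 were in neither siNC list (7.69%, against 5.93% of 28098 sites over all genes). They were Cbx7 79801925 with levels of 0.143 and 0.117 in siVirma, Cbx7 79802083 with 0.385 and 0.296, and Rnf2 151376559 with 0.102 and 0.171. Since a list gives no reads for sites it does not hold, their siNC levels are not known here.

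Levels fell at nearly every Polycomb site that could be tested. Of 96 sites, 30 stood in each of the 4 TBLC lists and had a minimum of 20 A+G reads there. Of these 28 fell after siVirma, none rose and 2 passed no threshold (edgeR's quasi-likelihood test on A and G reads, Benjamini-Hochberg adjusted over 20414 sites, threshold 0.05). Over all 20414 sites, 91.6% fell and 0.147% rose. The requirement of a call in every library keeps sites that stayed above the list's minimum level in siVirma, and the sites lost from the siVirma lists are not among the 30. The median level of the 30 sites was 0.227 in siVirma against 0.548 in siNC. The share of the level that was kept, meaning the mean siVirma level as a percent of the mean siNC level, had a median of 42.1% over the 30 sites and 45.1% over all sites. It was 42.9% over 16 PRC2 sites and 40.4% over 14 PRC1 sites.

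Suz12, the PRC2 scaffold, fell at all 4 tested sites. At the most deeply read of these 4, chromosome 11 position 79923041, the level was 0.177 and 0.229 in siVirma against 0.484 and 0.500 in siNC (log2 odds change -1.93 ± 0.29, SE, edgeR adjusted p = 1.19e-07). The groups were well apart there. Each SE of a log2 odds change was derived from the edgeR test statistic, and it can be smaller than the counting error of the reads. Site 79923019 fell least, with 0.424 and 0.333 in siVirma against 0.675 and 0.659 in siNC, and 79922966 fell most, with 0.207 and 0.186 against 0.590 and 0.553.

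Jarid2, the PRC2 cofactor, fell at 5 of 6 tested sites. The deepest of the tested sites, chromosome 13 position 45074875, had the highest siNC level of the PRC2 sites, with 0.376 and 0.412 in siVirma against 0.869 and 0.884 in siNC (log2 odds change -3.43 ± 0.28, SE, edgeR adjusted p = 1.73e-14). Its neighbour on the 3′ side, 45074945, had 0.229 and 0.240 in siVirma against 0.679 and 0.780 in siNC, the largest drop of the gene at 0.495. A site of low level, 45056570, had 0.119 and 0.130 in siVirma against 0.264 and 0.319 in siNC. Site 45074101 had 0.286 and 0.242 in siVirma against 0.426 and 0.406 in siNC; the groups did not overlap, but with 28 to 47 reads a library its edgeR adjusted p was 0.0586.

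Mtf2 held both extremes among the PRC2 sites. Position 108254819 on chromosome 5 had 0.301 and 0.238 in siVirma against 0.838 and 0.885 in siNC, a difference of -0.592 that was the largest of the 30 sites (edgeR adjusted p = 6.89e-13). At the most deeply read tested site, 108254678, with 248 to 298 reads a library, the level was 0.229 and 0.206 in siVirma against 0.567 and 0.612 in siNC. Site 108254616 had 0.298 and 0.289 in siVirma against 0.655 and 0.761 in siNC. The exception was 108213582, the 5′-most listed site, with 0.321 and 0.333 in siVirma against 0.250 and 0.292 in siNC. It was the only one of the 30 sites where siVirma did not lie below siNC in every library, while 94.8% of all tested sites had both siVirma libraries below both siNC libraries. This site rests on 20 to 28 reads a library, its log2 odds change of 0.37 ± 0.62 (SE) had an edgeR adjusted p of 0.586, and it kept more of its level than 99.6% of all sites.

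Rnf2, the main ubiquitin ligase subunit of PRC1 in embryonic stem cells, fell at all 3 tested sites and kept little of its level at each. The deepest of these, chromosome 1 position 151346984, had 0.128 and 0.137 in siVirma against 0.533 and 0.428 in siNC, which is 27.6% kept (edgeR adjusted p = 2.24e-13). Position 151347039 had 0.126 and 0.149 in siVirma against 0.509 and 0.605 in siNC (24.7% kept). The adjacent site 151347044 had 0.179 and 0.208 against 0.660 and 0.646 (29.7% kept). These adjacent sites lie close enough to share reads. Each of the 3 sites lay in the lowest 5.4% of all tested sites by the share kept.

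Cbx7, the reader subunit, fell at all 10 tested sites. At the deepest of these, chromosome 15 position 79800434, the level was 0.298 and 0.221 in siVirma against 0.531 and 0.537 in siNC (edgeR adjusted p = 3.25e-11), and at 79802498 it was 0.159 and 0.125 against 0.356 and 0.376. Site 79801814 had the largest drop of the gene, with 0.304 and 0.287 in siVirma against 0.692 and 0.678 in siNC. Position 79802137 stood apart: it had 0.839 and 0.812 in siVirma against 0.993 in siNC replicate 1 and 152 of 152 reads as A in siNC replicate 2, with 134 to 211 reads a library. It fell by 0.171 (edgeR adjusted p = 3.63e-10) yet kept 82.8% of its level, and 93.7% of all tested sites kept less. On the log2 odds scale, which stretches differences near a level of 1, its change was -5.60 ± 0.66 (SE). This estimate was the most negative of the 30 sites. With 133 of 134 and 152 of 152 siNC reads as A, it rests on very few G reads, so its size, rank and SE are uncertain. The other 9 tested Cbx7 sites had siNC means of 0.309 to 0.685.

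The variant subunit Pcgf6 had 1 tested site, chromosome 19 position 47022878, with 0.282 and 0.219 in siVirma against 0.80 and 0.691 in siNC (log2 odds change -3.08 ± 0.37, SE, edgeR adjusted p = 6.49e-10). Ring1 had too few reads for the minimum of 20. Its site 34240192 on chromosome 17 had 11 of 37 and 10 of 25 reads as A in siVirma, against 9 of 16 and 14 of 19 in siNC. The means were 0.349 in siVirma and 0.650 in siNC, and with a minimum of 15 reads the edgeR adjusted p was 0.00444.

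**Figure D3:**
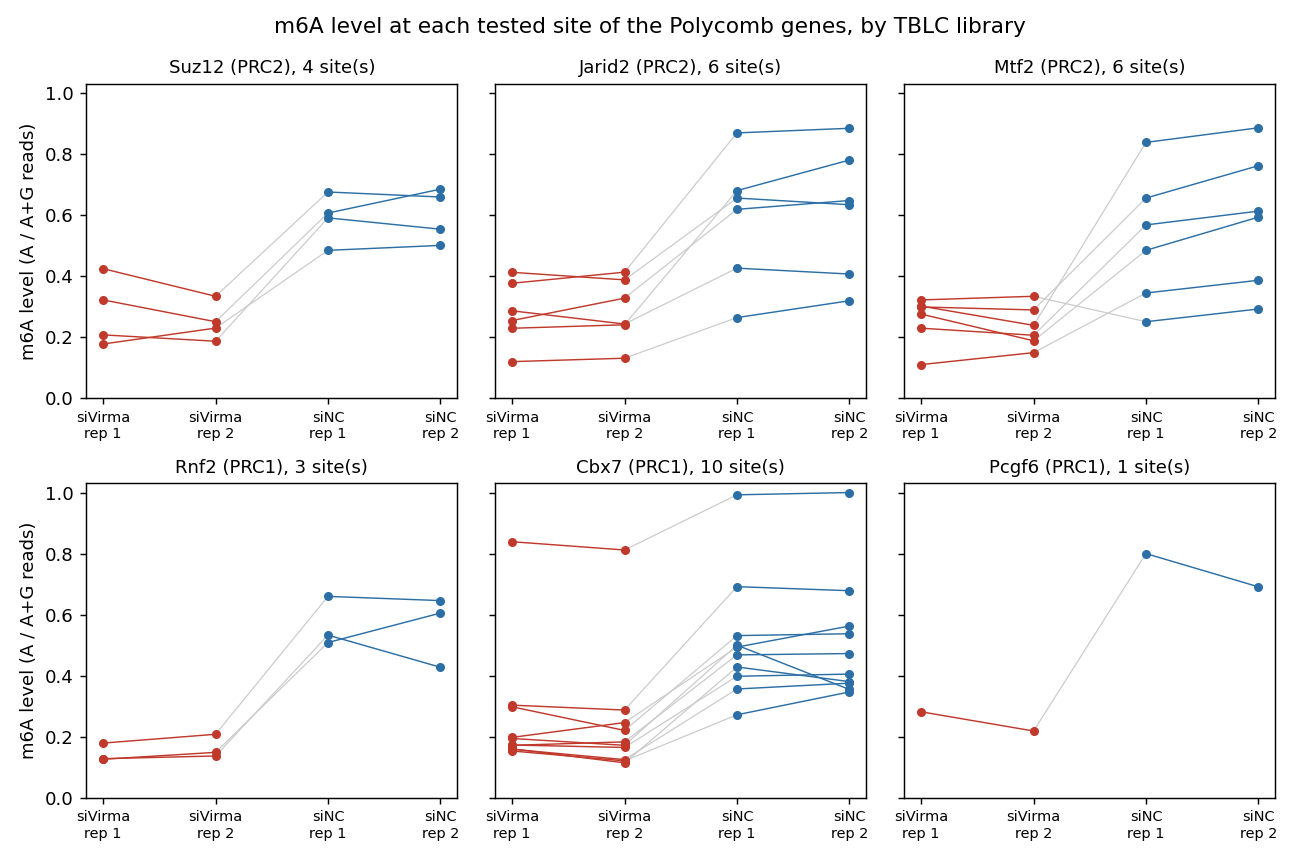
m6A level (y axis, A reads over A+G reads) at each of the 30 tested sites of 6 Polycomb genes in the 4 TBLC libraries (x axis), siVirma left in red and siNC right in blue; each line is 1 site and points are single libraries. At every site but 1 in Mtf2 both siVirma points lie below both siNC points, and 1 Cbx7 site stays above 0.8 in siVirma.

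Summed over the tested sites of a gene, all 6 Polycomb genes with a tested site fell (edgeR's quasi-likelihood test, adjusted over 5642 genes), as did 93.8% of all genes tested, while 0.177% rose. The sum weights each site by its reads. Rnf2 had the lowest level after siVirma, 0.142 and 0.160 against 0.555 and 0.541 in siNC (log2 odds change -2.77 ± 0.15, SE, adjusted p = 6.86e-22). It kept 27.6% of its level, and 1.86% of genes kept less. When 1 library was left out at a time, Rnf2 kept 25.9% to 32.5% and 1.90% to 9.37% of genes kept less. The highest values came without siVirma replicate 1. Sites were selected again from the remaining libraries, so the sites summed changed as well. Without siVirma replicate 1 the siNC mean of Rnf2 was 0.457, against 0.548 with all libraries. The range thus mixes a change of sites with the loss of a library. The share kept comes from the levels alone and does not depend on which test was used.

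Pcgf6 had 0.282 and 0.219 in siVirma against 0.80 and 0.691 in siNC and kept 33.6%. Among PRC2 genes, Mtf2 had 0.246 and 0.221 against 0.571 and 0.628 (38.9% kept), Jarid2 had 0.269 and 0.276 against 0.608 and 0.630 (44.0%), and Suz12 had 0.256 and 0.250 against 0.571 and 0.572 (44.3%). The median gene kept 44.9%, close to Jarid2 and Suz12, while 27.9% of genes kept less than Mtf2. Cbx7 had 0.286 and 0.255 in siVirma against 0.521 and 0.528 in siNC and kept 51.5%, with 70.7% of genes keeping less. Among the tested Cbx7 sites, this place rested on the only one near full methylation. Other Cbx7 sites, not in every list and so not tested, were also high where listed. Site 79801897 had 18 of 18 reads as A in siNC replicate 1 and 18 of 21 in siVirma replicate 2. Site 79802072 had 24 of 28 in siVirma replicate 1. With 79802137 left out, an alternative chosen after seeing the data, Cbx7 averaged 0.199 in siVirma and 0.475 in siNC and kept 41.9% (edgeR adjusted p = 2.58e-23), with 39.2% of genes keeping less. Leaving out any 1 site of Rnf2 gave 26.3% to 29.0% kept.

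In siNC the order of levels was Pcgf6, Jarid2, Mtf2, Suz12, Rnf2 and Cbx7, high to low. The libraries of Jarid2 and Mtf2 overlapped, as did those of Mtf2 and Suz12, while Pcgf6 lay above all others. The order compares unlike sets, from 1 tested site in Pcgf6 to 10 in Cbx7. The other listed Pcgf6 sites, not tested, had siNC levels of 0.116 to 0.412. In siVirma the order was Jarid2, Cbx7, Suz12, Pcgf6, Mtf2 and Rnf2, and every neighbouring pair overlapped except Mtf2 and Rnf2. Rnf2 thus sat below all 5 other genes in both siVirma libraries, whereas in siNC it sat above Cbx7. With 79802137 left out, Cbx7 averaged 0.199 in siVirma, between Mtf2 and Rnf2. The genes with the most similar 4 library levels, by Euclidean distance on the logit scale over 3160 or 3161 genes with at least 100 reads in each library, were Zzz3 for Suz12, Wdr33 for Jarid2, Psmd5 for Mtf2, Eif3j1 for Rnf2, Rpp25 for Cbx7 and Psmd11 for Pcgf6. Eif3j1, the nearest to Rnf2, had 0.141 and 0.177 in siVirma against 0.580 and 0.527 in siNC.

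**Figure D4:**
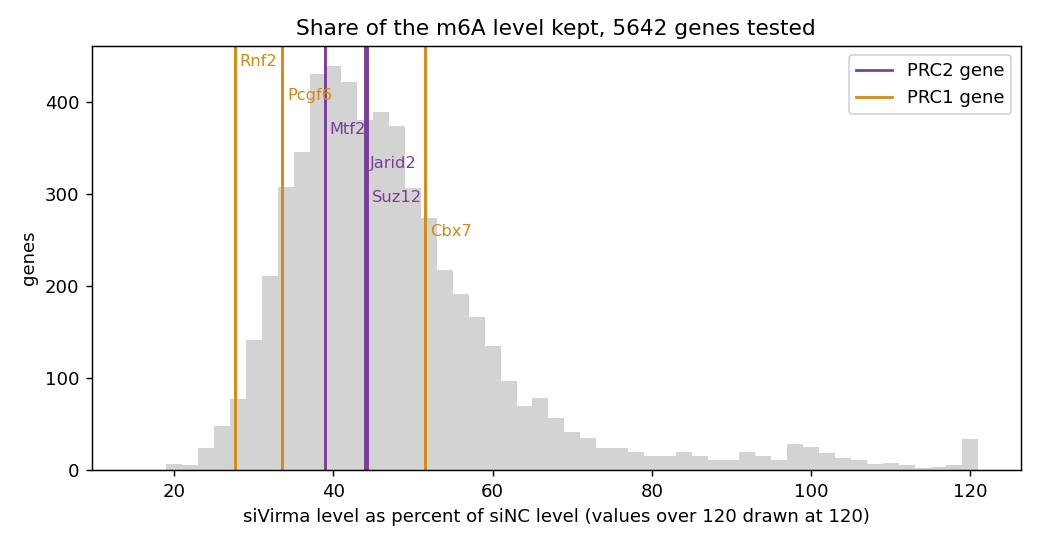
Number of genes (y axis) by siVirma level as a percent of siNC level (x axis) for the 5642 genes tested, values over 120 drawn at 120. Lines mark the Polycomb genes, purple for PRC2 and orange for PRC1; Rnf2 at 27.6% lies at the low edge, Suz12 and Jarid2 near the median of 44.9%, and Cbx7 at 51.5% above it.

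Other genes of the Polycomb system moved the same way. Of 52 genes in lists of further PRC2, PRC1, deubiquitinase and demethylase components, 40 had a listed site, 26 could be tested, all 26 fell and none rose, beside 93.8% of all 5642 genes that fell. The 26 kept a median of 46.5%, beside 44.9% over all genes. Among 10 PRC2 accessory genes, 2 were tested and fell. Aebp2, which binds nucleosomes with PRC2, had 0.167 and 0.145 in siVirma against 0.480 and 0.459 in siNC (33.2% kept). Epop, a PRC2 partner linked to elongin, had 0.342 and 0.359 against 0.622 and 0.624 (56.3% kept). Epop was listed with more sites after siVirma, 18 and 18 against 14 and 14 in siNC, although its level at shared sites fell; 1.37% of genes had both siVirma counts above both siNC counts, and Cbx2, with 7 and 6 sites in siVirma against 5 and 4 in siNC, was another.

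Among 12 further PRC1 core genes, 6 were tested and fell, where 93.8% of all genes tested did. The chromodomain genes Cbx2 and Cbx6 had means of 0.393 and 0.263 in siVirma against 0.805 and 0.567 in siNC. The variant subunit gene Pcgf3 had 0.289 in siVirma against 0.648 in siNC, and the polyhomeotic gene Phc2 had 0.245 against 0.523. Of 16 partners of variant PRC1, 8 were tested and fell, which is again near the share over all genes. E2f6, a repressor that joins the PRC1 containing Pcgf6, had 0.206 in siVirma against 0.661 in siNC and kept 31.2%, the least of the 26. Fbrsl1 had 0.433 against 0.797, the deubiquitinase gene Usp7 0.152 against 0.410, and Wdr5 0.131 against 0.331.

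Of 11 genes listed for PR-DUB, a complex that removes the H2A mark, 8 were tested and fell, beside 93.8% of all genes tested. Ogt, a glycosyltransferase gene, had a mean of 0.223 in siVirma against 0.577 in siNC, and the catalytic subunit gene Bap1 had 0.121 against 0.388. Asxl1, the partner of BAP1, had 0.307 in siVirma against 0.661 in siNC over 29 sites, and Kdm1b had 0.174 against 0.430. The demethylases of lysine 27, Kdm6a and Kdm6b, had 0.327 and 0.411 in siVirma against 0.688 and 0.649 in siNC. Kdm6b kept 63.3%, the most of the 26 genes.

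Gene coverage, a deposited signal per gene whose computation is not stated, moved little in the Polycomb genes. As deposited, Suz12 had 77.8 and 64.1 in siVirma against 74.3 and 71.7 in siNC, Jarid2 had 72.3 and 60.5 against 73.1 and 68.5, and Mtf2 had 103.0 and 91.8 against 103.3 and 100.5. The siVirma and siNC values overlapped in all 3 genes on this scale. The median gene was 0.17 higher in siVirma on the log2 scale, and changes are given relative to that shift. So centred, the log2 changes were -0.21 ± 0.05 for Suz12 (SE, limma adjusted p = 0.0261), -0.26 ± 0.05 for Jarid2 (adjusted p = 0.0129) and -0.23 ± 0.05 for Mtf2 (adjusted p = 0.0183). These 3 PRC2 genes were called lower, as were 12.4% of 6787 genes, and 9.15% were called higher.

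None of the 4 PRC1 genes was called. Rnf2 had 99.3 and 85.1 in siVirma against 85.7 and 85.6 in siNC (centred log2 change -0.06, limma adjusted p = 0.373), and Cbx7 had 121 and 100.5 against 107 and 102 (-0.09, adjusted p = 0.239). Pcgf6 had 48.8 and 45.6 in siVirma against 43.5 and 46.3 in siNC (-0.10, adjusted p = 0.327), and Ring1 had 29.2 and 25.5 against 23.9 and 20.9 (0.12, adjusted p = 0.162). The PRC2 calls depended on the centring and on single libraries: uncentred, the changes were -0.05, -0.10 and -0.07 for Suz12, Jarid2 and Mtf2 and 0 of them passed, and the signs of Rnf2, Cbx7 and Pcgf6 turned positive. Without siVirma replicate 1 none of the 3 passed, and without siNC replicate 2 only 1 did. Of the other Polycomb lists, 1 of 7 measured PRC1 core genes (Phc1) was called higher in siVirma, 1 of 10 variant PRC1 partners (Wdr5) lower, 2 of 8 PR-DUB genes (Mbd6 and Ogt) higher, and 0 of 3 PRC2 accessory genes and 0 of 2 demethylases either way. Fewer cells of a type and less RNA per cell cannot be told apart in such bulk coverage.

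Coverage of fibroblast markers moved with the groups. Of 14 such genes 7 had a value, 5 were called higher in siVirma and none lower, beside 9.15% of all 6787 genes called higher and 12.4% lower. Their summed coverage was 585 and 474 in siVirma against 335 and 313 in siNC; Col3a1, Fn1, S100a4, Lum, Postn, Vim and Dcn had no value. Of the 2-cell program 4 of 10 genes were called lower, of the pluripotency genes 2 of 10 and of the primitive endoderm genes 1 of 4, and none was called higher; uncentred, 30 of all 6787 genes were called lower. The part of these cell type markers in the coverage and level changes of the Polycomb genes was not tested. The conversion rate per gene that the authors give was also higher in siVirma for the median gene, 0.988 and 0.988 against 0.983 and 0.983 in siNC. All 7 Polycomb genes with a site moved the same way, and the share of all genes that did so was not counted. Cbx7, the lowest of the 7, had 0.981 and 0.982 in siVirma against 0.971 and 0.970 in siNC. The part of the conversion rate in the level changes was not tested.

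In EPSC the Polycomb sites showed no change that passed the threshold between sgGata6 and sgCtrl. Of the 96 TBLC sites 41 were matched by chromosome, position and strand (42.7%, against 19.0% of all sites), none of them in Ring1. These shares are not matched for depth. In TBLC the siNC coverage of Jarid2, Suz12, Rnf2, Mtf2 and Cbx7 was above that of 78.0% to 88.0% of genes. That of Pcgf6 was above 58.6% and that of Ring1 above 11.7%. The part of depth in the matching was not tested. At 28 sites read by a minimum of 20 A+G reads in both pools, Fisher's exact test on pooled reads called 0 after adjustment over 10185 sites, of which 0.275% were called. At an unadjusted p under 0.05 there were 3 Polycomb sites (11.8% of all sites reached that), and the smallest adjusted p was 0.181. The test compares the pooled reads and not the conditions, since the spread between libraries cannot be seen. Of the 28 sites 13 were higher and 15 lower in sgGata6, with a median difference of -0.0067, beside -0.0091 over all sites.

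Summed over matched sites, the Polycomb genes had 524 of 1504 reads as A in sgGata6, a level of 0.348 (Wilson 95% interval 0.325 to 0.373), against 569 of 1629 in sgCtrl, a level of 0.349 (0.326 to 0.373). Suz12 had 0.319 (0.270 to 0.372) in sgGata6 against 0.277 (0.238 to 0.320) in sgCtrl, and Jarid2 had 0.507 (0.442 to 0.571) against 0.471 (0.419 to 0.524). Mtf2 had 0.337 (0.295 to 0.381) in sgGata6 against 0.356 (0.309 to 0.407) in sgCtrl. For Rnf2 the levels were 0.236 (0.189 to 0.290) against 0.211 (0.156 to 0.278), and for Cbx7 0.395 (0.326 to 0.469) against 0.407 (0.350 to 0.466). Pcgf6 had 0.356 (0.246 to 0.483) in sgGata6 from 59 reads against 0.208 (0.092 to 0.405) in sgCtrl from 24. A summed level also depends on how the reads of a pool split over sites, and for Pcgf6 the split differed. Its site 47022878 had 16 of 25 reads as A in sgGata6 and 2 of 4 in sgCtrl, while 47022470 had 5 of 34 and 3 of 20. The intervals of the pools overlapped for every one of the 6 genes, and they cover counting error only.

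The 3 sites with the smallest p pointed both ways. Mtf2 108255070 had 16 of 60 reads as A in sgGata6 against 3 of 50 in sgCtrl (Fisher's exact p = 0.0049, adjusted p = 0.181), while Mtf2 108254639, on its 5′ side, had 14 of 63 against 15 of 34 (exact p = 0.0359, adjusted p = 0.365). Suz12 79923037 had 13 of 48 in sgGata6 against 6 of 61 in sgCtrl (exact p = 0.0231, adjusted p = 0.299). Some sites high in TBLC siNC were high in both EPSC pools. Jarid2 45074875 had 48 of 60 reads as A in sgGata6 and 55 of 72 in sgCtrl, Mtf2 108254819 had 28 of 34 and 31 of 37, and Cbx7 79802137 had 8 of 9 and 27 of 28. Over 29 Polycomb sites the median was 0.324 in EPSC sgCtrl and 0.366 in TBLC siNC, beside 0.320 and 0.373 over 7983 matched sites. The 29 were called in both siNC lists and had a minimum of 20 A+G reads in sgCtrl and in each siNC library. A call needs a minimum level, and it was required on the TBLC side only, so the selection can favour a higher TBLC median. The tables were made separately, so these medians are given side by side and were not tested.

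**Figure D5:**
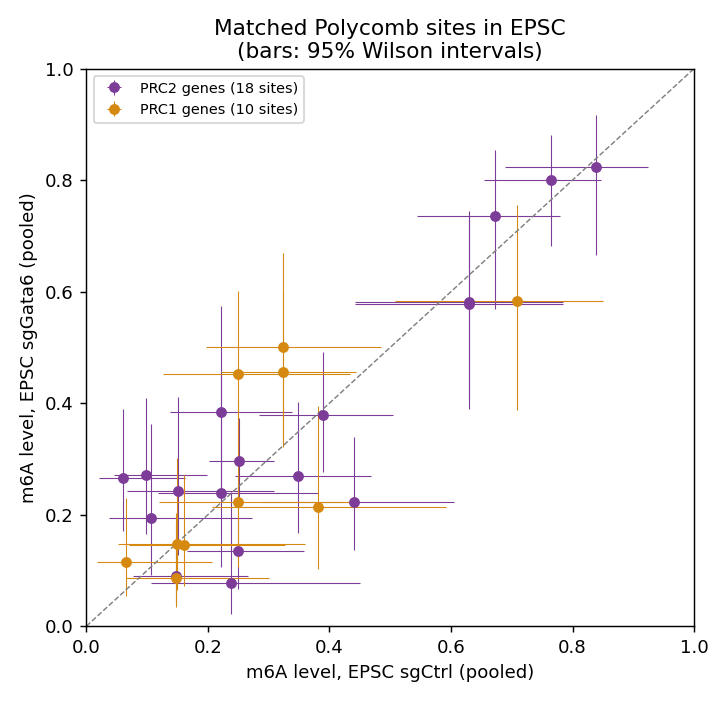
m6A level in the EPSC sgGata6 pool (y axis) against the sgCtrl pool (x axis) for the 28 tested Polycomb sites, purple for PRC2 and orange for PRC1, with Wilson 95% intervals as bars and the line of equality dashed. The points scatter on both sides of the line, 13 higher and 15 lower in sgGata6.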

How the data were processed

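Per the labels' protocols, GLORI libraries came from purified mRNA and were run on a NovaSeq sequencer. The build is mm39, per the submitters' processing notes. For the aligner and site caller, the sources used here give no name. The deposited TBLC lists give whole-number counts of A+G and A reads per called site, per the file headers. They also give the level as a fraction and the authors' p-value (raw and adjusted) per site. The deposited conversion rate is a fraction per gene and the deposited gene coverage is a signal; how the authors computed either one is not stated in these sources. The deposited EPSC table holds counts of A reads, the coverage of a site in A+G reads and the level as a fraction, pooled over the libraries of a group; 2 columns of total coverage were left out.

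Groups came from the sample titles. Sites were matched on chromosome, position and strand, and genes by symbol. Sites in all 4 TBLC lists with at least 20 A+G reads each were tested with edgeR 4.0.16 (R 4.3.3): quasi-likelihood test on A and G reads, a term per library, group effect on the A reads, Benjamini-Hochberg over all sites, threshold 0.05. The gene test used reads summed over the same sites; the 6.14% to 7.7% of listed sites without a gene name entered only the site test. A log2 odds change is of A to G reads. Its SE was taken as the absolute change divided by the square root of the quasi-likelihood F statistic. It is not a separate estimate of the spread between libraries and can be smaller than counting error. Gene coverage was tested with limma 3.58.1 on log2 values centred on each library's median, for genes with a site in all 4 lists. EPSC pools were compared with Fisher's exact test, in place of a planned edgeR test on single libraries. Alternatives were limma on log2 odds with 0.5 added to the reads, DESeq2 1.42.0, minimums of 15 and 50 reads, uncentred coverage, a pseudocount of 1, a coverage filter of 10, a replicate term, and leaving out each library. The tests were tried on simulated data. Python 3.11.15, pandas 2.3.3, scipy 1.17.1 and matplotlib 3.10.9 made the summaries and plots. The 9 genes, the further Polycomb lists and the cell type markers were chosen with earlier results of these data known. For each gene the text names its 2 most deeply read tested sites and those with the largest and smallest fall; for each list, up to 2 genes with the largest and 2 with the smallest fall in level, beyond which Phc1, Mbd6 and the sites of low p in EPSC are named as small counts.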

Additional observations from a re-analysis of the deposited data

How the results depend on the processing

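All 6 Polycomb genes fell in each of the 9 alternative fits that were run, and the count of Polycomb sites that fell stayed within 1.5 times of 28. Jarid2 45074101 passed with limma on log2 odds (adjusted p = 0.0278) and Jarid2 45055831 did not pass with DESeq2 (adjusted p = 0.0759). With a minimum of 50 reads 8504 sites fell and 10 rose, and 3108 genes fell and 3 rose, from fewer features tested. DESeq2 called 4 sites and 1 gene as risen. Leaving out 1 library gave 10 to 24 risen sites and 4 to 8 risen genes. Coverage was the least stable. Without centring 30 genes and 0 Polycomb genes were lower, and the log2 changes of Cbx7, Pcgf6 and Rnf2 became 0.080, 0.070 and 0.10. Leaving out 1 library gave 15 to 580 higher and 10 to 785 lower genes, and 0 to 2 lower Polycomb genes. Suz12 passed in none of these 4 fits (limma adjusted p = 0.069 to 0.140), Jarid2 not without siVirma replicate 1 (0.0736), and Mtf2 neither without siVirma replicate 1 (0.0906) nor without siNC replicate 2 (0.109). The cause was not tested. Listed sites in siVirma were 49.5% of siNC at an adjusted p under 0.0005 and a level of at least 0.2, and 59.6% to 62.3% leaving out 1 library. The share of sites in neither siVirma list was 44.6% when siNC replicate 2 alone defined the sites.

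The titles link same-numbered libraries by number alone, and whether they were paired is not known. The correlation of their deviations was 0.00844 over 20414 sites and 0.138 over 6787 genes' coverage. With the replicate block 18692 sites and 5293 genes fell, with 28 sites and 6 genes among the Polycomb genes. In coverage the block gave 832 higher and 1306 lower genes, against 621 and 841 without it, again with 3 Polycomb genes lower. Precision is limited by 2 libraries a group, by read depth at Ring1 and Pcgf6, and in EPSC by pooling.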
